A study of Solanum lycopersicum with 12 samples.

Results

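The transcripts of tomato leaves (*Solanum lycopersicum* cv Red Setter) were compared between the wild type and *slmyb60Cr2*, a line in which CRISPR/Cas9 made a deletion in the gene *SlMYB60*. Each genotype had 4 libraries of poly(A) RNA, and the members of the comparison were all genes that reached 0.5 TPM in 4 or more of these 8 libraries, 20779 of the 33976 genes of the table. TPM (a length-corrected unit) is a transcript's share of a library, scaled to the same sum in every library. According to the study's methods, *slmyb60Cr2* is homozygous, was taken in the T2 generation after plants with the *Cas9* insertion had been removed, and is predicted to make a truncated protein. It is 1 line from 1 editing event, and the wild type is the unedited cultivar. The methods describe discs cut from full-grown leaves of 6-week-old plants, pooled from 4 plants per biological replicate, without mention of drought. The labels of all libraries name a water stress with irrigation suspended for 14 days. Both genotypes carry the same label, so a response to water deficit cannot be told apart from a difference that needs none. Another line, *slmyb60Cr1*, with another deletion and also 4 libraries, entered the fit to estimate the spread and served as a comparison. Comparisons of either line with the wild type share the wild type libraries.

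MYB transcription factors bind DNA through MYB repeats and form one of the largest families of plant regulators. In *Arabidopsis*, MYB60 is known from guard cells, the cell pairs that open and close the stomata, where its loss narrows the pore. The aerial epidermis, which holds the guard cells, is covered by the cuticle, a layer of the polyester cutin and of waxes, on top of a cell wall of cellulose, xyloglucan and pectin. Enzymes that cut, rejoin or loosen these wall polymers let cells grow or change shape.

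*SlMYB60* (Solyc10g081490) was the gene that the edit was made in, and its level checks the labels of edited against wild type libraries. It stood at 12.9, 12.3, 19.3 and 21.6 TPM in wild type replicates 1 to 4 and at 2.19, 2.61, 3.15 and 2.87 TPM in *slmyb60Cr2* replicates 1 to 4. Every *slmyb60Cr2* library lay below every wild type library, and the mean of the line was 16.4% of that of the wild type. The log2 fold change was −2.54 (standard error 0.13, limma adjusted p = 1.21e-04), and an exact two-sided permutation test of the TPM values gave p = 0.0286, the smallest that 4 libraries against 4 allow. How far reads missing over the deleted stretch lowered this value was not tested. The mean of *SlMYB60* was 2.70 TPM in *slmyb60Cr2* and 2.19 TPM in *slmyb60Cr1* (limma adjusted p = 0.233 between the lines). Its level therefore cannot check which edited line a library came from.

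Fold changes are differences of log2(TPM + 0.1), which understates the changes of genes near 0. The test was limma's (intensity trend, fitted over all 12 libraries, two-sided, Benjamini-Hochberg adjustment over all 20779 genes) with the replicate number as a block, so that libraries of the same number were compared with each other. A call required both a log2 fold change of more than 1 in size and an adjusted p under 0.05. Of the 20779 genes, 359 were called (1.73%). In *slmyb60Cr2*, 285 of them were higher (1.37%) and 74 lower (0.356%). Without the block 289 genes were called (1.39%), 232 higher and 57 lower. These included 275 of the 359. The count depended on single libraries. It was 176 without *slmyb60Cr2* replicate 2, 223 without wild type replicate 2, 226 without wild type replicate 4 and 234 without *slmyb60Cr2* replicate 1, and higher genes made up most of the calls in each of these fits.

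A gene could pass the TPM limit through the 4 libraries of 1 genotype alone. Low levels of the called genes in the other genotype therefore follow in part from the limit and the call rule. The median level of the genes called higher was 3.28 TPM in the wild type and 9.76 TPM in *slmyb60Cr2*, with a median log2 fold change of 1.34. Of these 285 genes, 68 had a wild type mean under 1 TPM. Those called lower went from a median of 7.88 TPM to 2.88 TPM, with a median log2 fold change of −1.40. Over all genes tested the medians were 15.7 and 16.5 TPM and the median log2 fold change was 0.04. Few changes were large, since 57 of the higher and 12 of the lower genes passed a log2 fold change of 2 in size. In 309 of the 359 called genes the 4 libraries of one genotype lay on one side of the 4 of the other, against 3445 of all genes tested (16.6%, with 11.5% higher and 5.05% lower in the line). Just inside and just outside the fold change threshold lay log2 fold changes of 1.0006 and 0.9985 among the higher and −1.0038 and −0.9997 among the lower genes. Since the leaf is a mixture of cell types, fewer cells of a type and less RNA per cell cannot be told apart in any of these values.

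**Figure D1:**
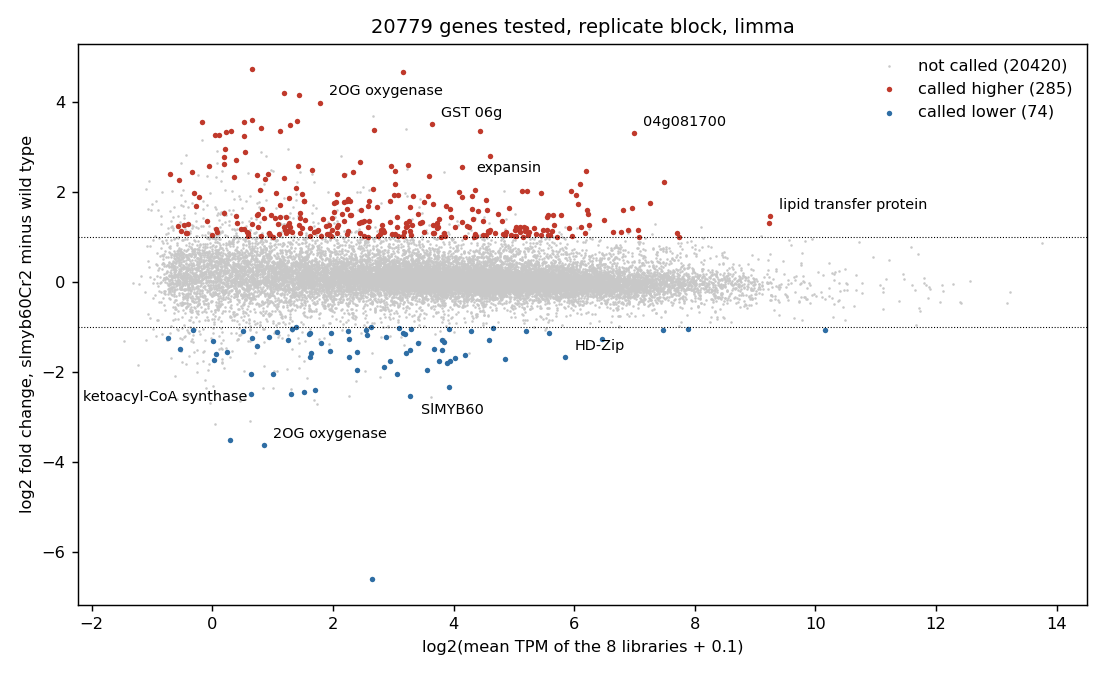
Each point is 1 of 20779 genes, with the log2 of its mean TPM over the 8 libraries plus 0.1 on the x axis and its log2 fold change (*slmyb60Cr2* minus wild type) on the y axis. Red points are the 285 genes called higher, blue points the 74 called lower, dotted lines mark log2 fold changes of 1 and −1, and the called genes lie mostly at low and middle levels.

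Which functions changed could be read only for genes that carry a name. No annotation used here links these identifiers to names, so names come from the study's own list of genes changed in both edited lines, of which 162 could be matched. For 4 of these, Solyc02g063140, Solyc03g123620, Solyc08g008150 and Solyc10g008350, the list prints the identifier with a digit too many and the match was repaired. For the same reason the leaf could not be checked against marker genes of its cell types. Of the 162 genes, 145 were tested and 109 of these were called here, 81 higher and 28 lower. This share of 75.2% stands against 1.73% of all genes tested, but the list was chosen on these same libraries and is no independent evidence of its direction. The same holds for each function group below, whose members are genes of this list. A group's counts near 81 higher and 28 lower of 145 show nothing particular to its function. The other 250 called genes, 204 higher and 46 lower, have no name here and no function can be given for them. The 17 listed genes under the TPM limit were examined in a fit without the limit, where 5 were called higher, 3 lower and 9 not.

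**Figure D2:**
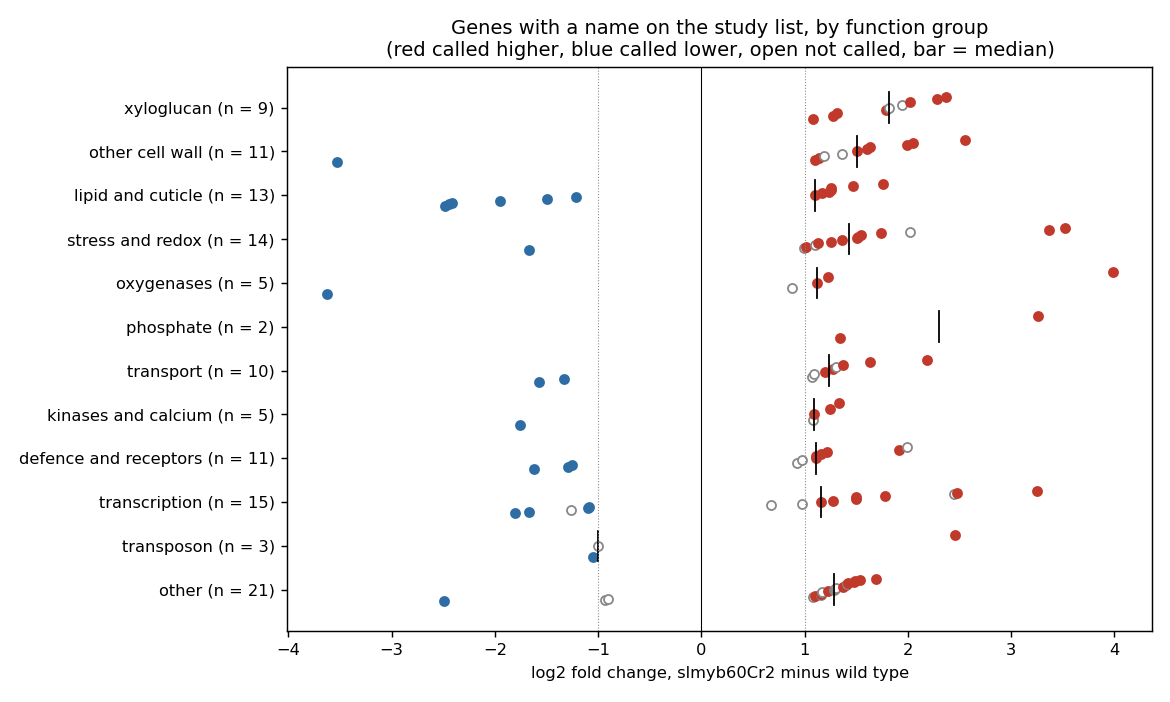
Points are the tested genes of the study's list that have a name, by function group on the y axis (n is the number tested), with the log2 fold change (*slmyb60Cr2* minus wild type) on the x axis. Red points were called higher, blue points lower and open points not, the black bar is the group median, and only the xyloglucan and phosphate groups hold no gene below 0.

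Most listed genes of the cell wall rose, and 1 structural protein fell. Of the 9 listed genes of xyloglucan metabolism, 7 were called higher and none (0) lower, and of the 11 other cell wall genes tested 8 were called higher and 1 lower. The median log2 fold changes of these groups were 1.81 and 1.5, and that of the whole list, chosen for changes of more than 1 in size, was 1.23. Of the 145 tested genes of the whole list, 81 were called higher and 28 lower, against 1.37% and 0.356% of all genes tested. The expansin Solyc09g018020, of a family of proteins that loosen the wall as cells grow, stood at 3.74, 3.82, 5.92 and 6.88 TPM in wild type replicates 1 to 4 and at 22.7, 29.4, 35.8 and 31.3 TPM in *slmyb60Cr2* replicates 1 to 4. The groups did not overlap, and the mean rose 5.85-fold (log2 fold change 2.56, standard error 0.13, limma adjusted p = 1.32e-04). An expansin-like gene, Solyc01g112000, went from 70.2 ± 7.44 to 150.0 ± 5.47 TPM (mean ± SD, n = 4 in each genotype here and below; log2 fold change 1.1, limma adjusted p = 0.0111), and its log2 fold change of 0.95 without wild type replicate 4 was just under the threshold. EXORDIUM-like 2 (Solyc04g074470), whose *Arabidopsis* relatives act in cell expansion, rose from 0.609 ± 0.287 to 2.66 ± 0.318 TPM (log2 fold change 2.05, limma adjusted p = 0.00566), with every *slmyb60Cr2* library above every wild type library.

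Enzymes acting on the wall polysaccharides rose with them. The xyloglucan endotransglycosylase Solyc09g092520, which cuts and rejoins xyloglucan chains, stood at 21.9, 22.9, 22.5 and 30.0 TPM in the wild type and 99.0, 89.6, 116 and 90.5 TPM in *slmyb60Cr2* (log2 fold change 2.02, standard error 0.27, limma adjusted p = 0.00574). Wild type replicate 4 lay apart from its group at 30.0 TPM and still far below all libraries of the line. Solyc12g011023 and Solyc12g011030, close identifiers of the same family, rose by 2.28 and 1.27 on the log2 scale (limma adjusted p = 0.0115 and 0.0278), and XTH3 (Solyc03g093130) by 2.37 (limma adjusted p = 0.0355). The genotypes overlapped in Solyc12g011030, where wild type replicate 1 lay at 2.46 TPM and replicate 4 of the line at 2.06 TPM. Salmon could have split shared reads among such relatives, so the share of each is uncertain. On the synthesis side, a cellulose synthase-like C4 glycosyltransferase (Solyc04g077470), of a family that builds the xyloglucan backbone, went from 6.18 ± 0.903 to 15.4 ± 0.660 TPM (log2 fold change 1.31, limma adjusted p = 0.0131), and the xyloglucan galactosyltransferase KATAMARI1 (Solyc07g044960), which decorates that backbone, from 1.67 ± 0.346 to 3.64 ± 0.766 TPM (log2 fold change 1.08, limma adjusted p = 0.0337), with wild type replicate 4 apart from its group at 1.15 TPM. A cellulose synthase (Solyc03g097050) lay at 2.39 to 3.86 TPM in the wild type and 6.66 to 10.1 TPM in *slmyb60Cr2*, without overlap, but was not called with the block (limma adjusted p = 0.0578) and was called without it (limma adjusted p = 0.0392).

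Glucan and pectin enzymes followed the same direction. The endo-1,4-beta-glucanase Cel2 (Solyc09g010210), known in tomato from ripening fruit and from organ shedding, lay at 2.75 to 14.6 TPM in the wild type and 19.3 to 31.9 TPM in *slmyb60Cr2* (log2 fold change 1.99, limma adjusted p = 0.0198). The glucan endo-1,3-beta-glucosidase Solyc02g086700 stood at 38.6, 62.7, 30.4 and 21.7 TPM in the wild type and 180.5, 138, 64.4 and 64.9 TPM in *slmyb60Cr2*, with replicates 1 and 2 higher than 3 and 4 in both genotypes. It was called with the block (limma adjusted p = 0.00573) and not without it (limma adjusted p = 0.0883). A pectinesterase (Solyc03g123620), which removes methyl groups from pectin, and a gene of the invertase and pectin methylesterase inhibitor family (Solyc03g083730) rose from 11.6 ± 2.22 to 35.3 ± 6.18 TPM and from 7.91 ± 4.07 to 22.7 ± 4.86 TPM (limma adjusted p = 0.0328 and 0.0290, and 0.0422 and 0.0696 without the block). The wall gene that fell was the proline-rich protein Solyc10g054900, at 5.12, 0.617, 1.77 and 1.31 TPM in the wild type and 0.0465, 0.0981, 0 and 0.0932 TPM in *slmyb60Cr2* (log2 fold change −3.53, limma adjusted p = 0.00710). Leaving out 1 of the 8 libraries at a time took away the call of KATAMARI1 in 8 of 8 fits, of XTH3 and of the inhibitor gene in 7 each, of Solyc12g011030 and of the pectinesterase in 6 each and of Cel2 in 3, at log2 fold changes of at least 0.88, 2.13, 1.25, 1.07, 1.33 and 1.66. The call of Solyc04g077470 was lost without *slmyb60Cr2* replicate 2 (log2 fold change 1.23, limma adjusted p = 0.0555).

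**Figure D3:**
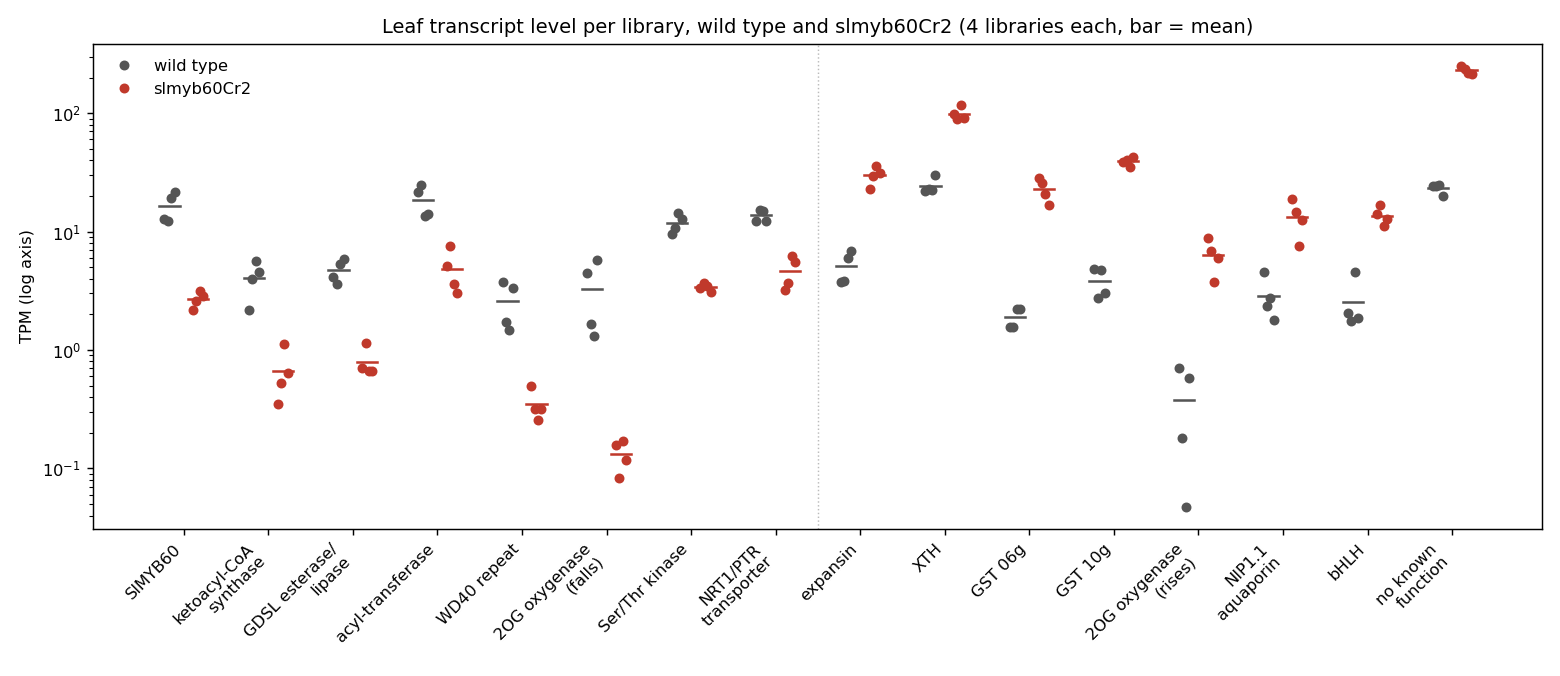
TPM on a log axis for 16 genes in the 4 wild type libraries (grey) and the 4 *slmyb60Cr2* libraries (red), with a bar at each mean. The 8 genes left of the dotted line fell and the 8 right of it rose, with no overlap between the genotypes in any of them. For most of these genes the lack of overlap was a condition of the rule that named them, so it is no separate result.

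The listed genes of lipid and cuticle metabolism changed in both directions. All 13 tested were called, 7 higher and 6 lower, with a median log2 fold change of 1.1. Of the 145 tested genes of the whole list, 109 were called, 81 higher and 28 lower, against 1.73% of all genes tested. The 6 of these 13 genes that fell were a 3-ketoacyl-CoA synthase, 2 GDSL esterase/lipases, 2 HXXXD-type acyl-transferases and a cytochrome P450. The first, Solyc02g063140, of a class that lengthens fatty acids (the study's text calls this gene an acyl-CoA synthetase), stood at 2.18, 3.98, 5.65 and 4.53 TPM in wild type replicates 1 to 4 and 0.349, 0.522, 1.13 and 0.635 TPM in *slmyb60Cr2* replicates 1 to 4 (log2 fold change −2.48, standard error 0.22, limma adjusted p = 0.00139). In both genotypes replicate 1 was lowest and replicate 3 highest, and the groups did not overlap. Both GDSL esterase/lipases fell, with log2 fold changes of −2.44 for Solyc03g005900 and −1.5 for Solyc11g032050 (limma adjusted p = 0.00191 and 0.0181), members of a family that includes the enzyme polymerising tomato cutin. Replicate 2 of the line lay apart in the first at 1.13 TPM and replicate 4 in the other at 0.352 TPM, both below every wild type library. The HXXXD-type acyl-transferases Solyc05g052650 and Solyc05g052680, which transfer acyl groups from coenzyme A to acceptors such as alcohols, fell to 19.3% and 26.1% of the wild type means (limma adjusted p = 0.0188 and 7.91e-04). Their identifiers are close, and reads of similar sequences could have been divided between them. Another listed HXXXD-type acyl-transferase, Solyc12g096790, was under the TPM limit and rose from 0.115 ± 0.0475 to 0.586 ± 0.336 TPM. It was called higher in the fit without the limit (log2 fold change 1.55, limma adjusted p = 0.0206). The call of Solyc05g052650 was lost without wild type replicate 2 and without *slmyb60Cr2* replicate 2 (log2 fold changes over the 8 fits from −2.79 to −1.95), and that of Solyc11g032050 in 5 of the 8 fits. The call of Solyc11g032050 was also lost with a pseudocount of 0.5 and with one of 1, where its log2 fold change was −0.60. Both calls were lost in the fit of the 8 libraries alone.

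The 7 tested lipid genes that rose were 2 lipid transfer proteins, an aldehyde dehydrogenase, an acyl-CoA synthetase, a fatty acid desaturase, a phosphodiesterase and a phospholipase. The 2 non-specific lipid transfer proteins, small proteins that carry lipids between membranes and to the cell surface, included the called gene with the highest mean in the line, Solyc10g075090, at 409.9, 260.2, 276 and 302 TPM in the wild type and 1387, 828, 892 and 504 TPM in *slmyb60Cr2* (log2 fold change 1.46, limma adjusted p = 0.00522). Replicate 1 was highest in both genotypes, and replicate 4 of the line was its lowest library. Solyc10g075103 lay at 37.4 to 97.6 TPM in the wild type and 156 to 341 TPM in *slmyb60Cr2* (log2 fold change 1.76, limma adjusted p = 0.00591). The aldehyde dehydrogenase Solyc04g056713, of a class that oxidises aldehydes to acids, rose from 7.37 ± 0.942 to 17.6 ± 0.247 TPM (limma adjusted p = 8.82e-04), and was called in all 17 alternative fits. A glycerophosphodiester phosphodiesterase (Solyc02g094400), of a family that breaks down glycerophosphodiesters from membrane lipids, went from 2.39 ± 0.297 to 5.82 ± 1.28 TPM, and a patatin-like phospholipase (Solyc05g056380), which releases fatty acids, from 5.81 ± 1.73 to 13.8 ± 2.96 TPM (limma adjusted p = 0.00489 and 0.0127). With a pseudocount of 1 the log2 fold change of Solyc02g094400 was 0.99 and it was not called. The acyl-CoA synthetase Solyc02g082910 was called with the block (limma adjusted p = 0.0141) and not without it (limma adjusted p = 0.0552).

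Most of the listed stress and redox genes rose. Of 14 tested, 10 were called higher, 1 lower and 3 not, beside 81 called higher of the 145 tested genes of the whole list and 1.37% of all genes. The 3 without a call had positive log2 fold changes. The glutathione S-transferases, enzymes that attach glutathione to reactive compounds, showed the largest rises, with Solyc06g075520 at 1.57, 1.57, 2.23 and 2.22 TPM in the wild type and 28.6, 25.6, 20.7 and 16.7 TPM in *slmyb60Cr2* (log2 fold change 3.52, standard error 0.33, limma adjusted p = 0.00186). The mean rose 12.1-fold, without overlap between the genotypes. For Solyc10g084960 the corresponding change was 10.2-fold (log2 fold change 3.36, limma adjusted p = 2.96e-04). Of 4 genes with a late embryogenesis description, 2 were called, and the other 2 had positive log2 fold changes without a call. Both called genes are described as late embryogenesis abundant hydroxyproline-rich glycoprotein family. Solyc01g006320 went from 30.0 ± 7.72 to 70.8 ± 12.1 TPM and Solyc08g008150 from 30.2 ± 7.78 to 104 ± 40.3 TPM (limma adjusted p = 0.00878 and 0.0176).

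An L-ascorbate oxidase-like gene (Solyc02g090360), whose enzyme class oxidises ascorbate in the wall space, rose from 14.4 ± 5.53 to 39.0 ± 4.10 TPM (log2 fold change 1.5, limma adjusted p = 0.00577). A lactoylglutathione lyase (Solyc01g103590), which detoxifies methylglyoxal, rose from 3.29 ± 0.997 to 8.65 ± 2.67 TPM (log2 fold change 1.36, limma adjusted p = 0.00483), and a zinc finger AN1 stress-associated gene (Solyc02g087210) from 5.2 ± 1.04 to 15.8 ± 6.15 TPM (log2 fold change 1.51, limma adjusted p = 0.0189), with wild type replicate 3 apart at 6.75 TPM. The heat shock protein of the 70 kD class (Solyc06g076020), a chaperone, and the heat stress transcription factor B3 (Solyc10g079380), counted with the transcription factors below, rose by 1.12 and 1.49 on the log2 scale (limma adjusted p = 0.0322 and 0.0369). The one called lower was a glyoxal oxidase (Solyc05g007010), an enzyme that makes hydrogen peroxide, at 5.62 to 8.37 TPM in the wild type and 1.33 to 3.27 TPM in *slmyb60Cr2* (log2 fold change −1.67, limma adjusted p = 0.00418). The peroxidase Solyc11g018774 had a log2 fold change of 2.02 with no overlap between the groups, yet its libraries spread so widely (6.15, 9.08, 10.0 and 18.7 TPM in the wild type and 64.4, 30.6, 64.7 and 23.1 TPM in *slmyb60Cr2*) that it was not called (limma adjusted p = 0.163). The other listed peroxidase, Solyc10g047110, was under the TPM limit and fell from 0.605 ± 0.227 to 0.0134 ± 0.0268 TPM. The fit without the limit called it lower (log2 fold change −2.60, limma adjusted p = 0.00512). A respiratory burst oxidase homolog under the limit (Solyc05g025680) was called higher there (log2 fold change 1.38, limma adjusted p = 0.00938). With 1 library left out at a time, the calls of Solyc06g076020, Solyc10g079380, Solyc02g087210 and Solyc08g008150 were lost in 7, 6, 5 and 4 of 8 fits, at log2 fold changes of at least 0.95, 1.20, 1.36 and 1.42.

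Oxygenases held the largest named changes in both directions. These enzymes use oxoglutarate and iron to hydroxylate hormones and secondary metabolites, and the substrates of the 3 found here are not given by the list. Solyc09g089780 stood at 0.709, 0.182, 0.0474 and 0.580 TPM in the wild type and 8.75, 6.82, 3.77 and 6.0 TPM in *slmyb60Cr2* (log2 fold change 3.99, standard error 0.33, limma adjusted p = 0.00113). Its neighbour Solyc09g089790, with the same description, rose less, from 1.47 ± 0.143 to 3.33 ± 0.557 TPM (log2 fold change 1.12, limma adjusted p = 0.00282). Solyc10g018190 fell from 4.45, 1.67, 1.31 and 5.76 TPM to 0.159, 0.0836, 0.172 and 0.119 TPM (log2 fold change −3.63, standard error 0.49, limma adjusted p = 0.00602), with replicates 1 and 4 of the wild type well above replicates 2 and 3. With a pseudocount of 1, Solyc09g089790 was no longer called (log2 fold change 0.80) and Solyc10g018190 still was (−1.78).

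The study's list named only 3 phosphate genes, all weakly expressed, and other phosphate genes could not be recognised here. The 2 tested were called higher, beside 81 of the 145 tested genes of the whole list. The one under the TPM limit, putative phosphatase 14A (Solyc06g062550), had means of 0.152 TPM in the wild type and 0.519 TPM in *slmyb60Cr2*. It was not called in the fit without the limit (limma adjusted p = 0.0674). The phosphatase of the psi14C gene (Solyc06g062540), known in tomato as induced by phosphate starvation, went from 0.118, 0.0978, 0.0764 and 0.0567 TPM in the wild type to 1.56, 1.27, 2.83 and 1.41 TPM in *slmyb60Cr2* (log2 fold change 3.26, standard error 0.27, limma adjusted p = 0.00113). A gene described as phosphate starvation inducible (Solyc03g098010) lay at 0.315 to 0.461 TPM in the wild type and 0.775 to 2.27 TPM in *slmyb60Cr2*, and its call (limma adjusted p = 0.0427) was lost in 8 of the 8 fits that left out a library (log2 fold changes from 0.98 to 1.58).

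Transporters changed in both directions, 5 higher, 2 lower and 3 not called of the 10 tested. These counts are near the shares of the whole list, 81 higher and 28 lower of 145 tested. The 3 listed transporters under the TPM limit were examined in the fit without it. An ABC transporter-like gene and the cationic amino acid transporter Solyc11g006710 (log2 fold change −1.70, limma adjusted p = 0.0134) were called lower there. An S-type anion channel was not called (limma adjusted p = 0.0792). The aquaporin NIP1.1 (Solyc03g005980), of a family that passes water and small uncharged molecules, stood at 4.56, 2.34, 2.73 and 1.80 TPM in the wild type and 18.7, 14.6, 7.49 and 12.5 TPM in *slmyb60Cr2* (log2 fold change 2.19, standard error 0.21, limma adjusted p = 0.00188). Replicate 1 was the highest library of both genotypes. Boron transporter 1 (Solyc06g071500), which exports borate, a cross-linker of wall pectin, fell from 19.5, 17.3, 17.3 and 27.7 TPM to 8.63, 7.61, 8.73 and 6.94 TPM (log2 fold change −1.33, standard error 0.18, limma adjusted p = 0.00583). A transporter of the NRT1/PTR family (Solyc08g077170), whose members carry nitrate, peptides or hormones, fell from 12.3, 15.2, 14.8 and 12.4 TPM to 3.20, 3.69, 6.26 and 5.49 TPM (log2 fold change −1.58, standard error 0.17, limma adjusted p = 0.00280). All 3 genes were called in each of the 17 alternative fits.

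ABC transporters use ATP to move substrates across membranes, and members of the G family export cuticle lipids in *Arabidopsis*. Of the 5 tested, 3 were called higher, beside 81 of the 145 tested genes of the whole list. The ABC transporter-like gene under the TPM limit, Solyc06g076930, went the other way, from 0.303 ± 0.00506 to 0.0592 ± 0.0154 TPM. In the fit without the limit it was called lower (log2 fold change −1.35, limma adjusted p = 0.00451). Solyc10g085950 rose from 2.25 ± 0.791 to 6.97 ± 1.44 TPM (log2 fold change 1.63, limma adjusted p = 0.00910). The neighbours Solyc05g051530 and Solyc05g051540, G family member 11, rose from 23.4 ± 4.85 to 57.4 ± 24.7 TPM and 43.6 ± 9.30 to 109 ± 34.8 TPM. The calls of these neighbours rested on the block (limma adjusted p = 0.0334 and 0.0356, and 0.109 and 0.0838 without it). In Solyc05g051530 the genotypes overlapped, with replicate 3 of the line at 26.4 TPM and wild type replicate 2 at 28.2 TPM. The calls were lost in 6 and 7 of the 8 fits that left out a library, with log2 fold changes of at least 0.95 and 1.01.

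The list held 5 tested genes tied to calcium, of which 3 were called higher and 2 were not called. Of all 145 tested genes of the list, 81 were called higher. The calcium-transporting ATPase Solyc02g064680, which pumps calcium out of the cytosol, lay at 39.8 to 57.0 TPM in the wild type and 109.9 to 149.6 TPM in *slmyb60Cr2* (log2 fold change 1.37, limma adjusted p = 0.0123). A calmodulin binding protein-like gene (Solyc03g113980) rose from 5.45 ± 0.825 to 13.1 ± 1.80 TPM (log2 fold change 1.25, limma adjusted p = 0.00522), and an EF-hand gene (Solyc06g069740) from 7.92 ± 2.49 to 17 ± 5.39 TPM (log2 fold change 1.09, limma adjusted p = 0.0210, and 0.0538 without the block, where it was not called). The call of the EF-hand gene was also lost in the fit of the 8 libraries alone and in 6 of the 8 fits that left out a library, with log2 fold changes of at least 0.96. Another calcium-transporting ATPase (Solyc09g082870) lay at 1.70 to 2.67 TPM in the wild type and 4.87 to 6.55 TPM in *slmyb60Cr2*, without overlap, and was not called (limma adjusted p = 0.0507). A C2 calcium-dependent membrane targeting gene was not called either. Of the protein kinases other than the receptor-like kinases described below, which rose, 1 was called higher. A serine/threonine-protein kinase (Solyc06g053730) fell from 9.54, 10.6, 14.4 and 12.7 TPM to 3.34, 3.68, 3.44 and 3.07 TPM (log2 fold change −1.76, standard error 0.18, limma adjusted p = 0.00245), and was called in all 17 alternative fits.

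Transcription factors other than *SlMYB60* changed in both directions, 7 higher, 4 lower and 4 not called of 15 tested. The whole list had 81 higher and 28 lower of 145 tested. A bHLH gene (Solyc12g008930) rose from 2.03, 1.74, 4.58 and 1.86 TPM to 14.0, 16.7, 11.2 and 12.7 TPM (log2 fold change 2.47, standard error 0.27, limma adjusted p = 0.00307), with wild type replicate 3 apart from its group at 4.58 TPM but below every library of the line. An ethylene-responsive transcription factor (Solyc07g042230), of a family that acts in hormone and stress responses, stood at 0.158, 0.178, 0.424 and 0 TPM in the wild type and 1.89, 2.20, 4.51 and 1.34 TPM in the line (log2 fold change 3.25, standard error 0.47, limma adjusted p = 0.00729). A knotted-1-like homeobox gene (Solyc12g010410) rose from 5.07 ± 1.91 to 17.4 ± 5.53 TPM (log2 fold change 1.78, limma adjusted p = 0.0140). Homeobox genes of this class are known for keeping cells undetermined at the shoot tip or, in another subgroup, for roles in differentiated organs.

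The WRKY genes Solyc12g011200 and Solyc04g072070, of a family tied to defence, rose from 3.92 ± 0.650 to 9.89 ± 2.95 TPM and from 24.2 ± 4.97 to 70.7 ± 24.5 TPM (limma adjusted p = 0.00418 and 0.0108). Another MYB gene, Solyc03g093890, rose from 14.8 ± 2.93 to 33.6 ± 9.55 TPM (log2 fold change 1.16, limma adjusted p = 0.00649), with replicate 4 of the line apart at 47.8 TPM. Of the factors that fell, the homeobox leucine zipper-like gene Solyc02g077590 was the most abundant, at 93.3, 86.3, 69.4 and 98.0 TPM in the wild type and 27.1, 21.4, 47.4 and 19.1 TPM in *slmyb60Cr2* (log2 fold change −1.67, standard error 0.40, limma adjusted p = 0.0357). Replicate 3 of the line was its highest library and still below the lowest of the wild type. An AP2/B3 family gene (Solyc04g007000) fell from 22.9 ± 9.20 to 6.69 ± 3.45 TPM (log2 fold change −1.80, limma adjusted p = 0.0331), with wild type replicate 1 apart at 36.5 TPM, and a MADS-box gene (Solyc07g052700) from 26.5 ± 4.83 to 12.6 ± 3.43 TPM (log2 fold change −1.09, limma adjusted p = 0.0187). The calls of these 3 falls were lost in 7, 6 and 5 of the 8 fits that left out a library, with log2 fold changes of at most −1.42, −1.35 and −0.82, and that of the knotted gene only without *slmyb60Cr2* replicate 2 among these fits.

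An enzyme of ethylene synthesis, 1-aminocyclopropane-1-carboxylate synthase (Solyc08g081550), lay at 6.02 to 12.5 TPM in the wild type and 16.3 to 27.5 TPM in *slmyb60Cr2*, without overlap, at a limma adjusted p of 0.0559 (log2 fold change 1.28). Ethylene response factor D.4 (Solyc10g050970) stood at 0.236, 0.0882, 2.22 and 0.235 TPM in the wild type and 1.43, 13.1, 3.11 and 0.570 TPM in *slmyb60Cr2*. The genotypes overlapped, wild type replicate 3 lay apart at 2.22 TPM, and the log2 fold change of 2.45 came with a standard error of 1.17 (limma adjusted p = 0.213).

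Defence and receptor genes were called higher in 5 and lower in 3 of 11 cases, beside 81 and 28 of the 145 tested genes of the whole list. A disease resistance gene of the TIR-NBS-LRR class (Solyc07g052790), an intracellular receptor for pathogen proteins, rose from 4.12, 9.98, 16.4 and 5.76 TPM to 24.0, 33.7, 27.8 and 36.5 TPM (log2 fold change 1.91, standard error 0.32, limma adjusted p = 0.0115). The cysteine-rich receptor-like kinase Solyc02g080050 and the proline-rich receptor-like kinase Solyc01g103470, which sit in the plasma membrane and sense the apoplast, rose from 18.5 ± 4.02 to 39.7 ± 6.94 TPM and 4.43 ± 0.802 to 9.76 ± 2.08 TPM (limma adjusted p = 0.0164 and 0.0392). The latter was not called without the block (limma adjusted p = 0.0539), and both calls were lost in 4 and 7 of the 8 fits that left out a library. An NB-ARC gene (Solyc02g077060) lay at 1.22 to 6.62 TPM in the wild type and 10.7 to 18.6 TPM in *slmyb60Cr2* and was not called (limma adjusted p = 0.0843).

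The 3 falls of this group were 2 VQ genes and an ENHANCED DISEASE RESISTANCE 2-like gene. Both neighbours described as VQ motif-containing protein 29, of a family that binds WRKY factors, were lower, Solyc09g008760 at 48.4, 23.4, 19.1 and 20.3 TPM in the wild type and 10.6, 10.8, 5.56 and 7.44 TPM in *slmyb60Cr2* and Solyc09g008750 from 20.1 ± 7.25 to 7.84 ± 1.04 TPM (limma adjusted p = 0.00262 and 0.0146). Wild type replicate 1 was the highest library for both and lay apart from its group in the first at 48.4 TPM. The ENHANCED DISEASE RESISTANCE 2-like gene (Solyc02g088320) fell from 0.751 ± 0.152 to 0.258 ± 0.0681 TPM (limma adjusted p = 0.0314), and its log2 fold change was −0.47 with a pseudocount of 1. Its call was lost in 7 of the 8 fits that left out a library, and that of Solyc09g008750 without *slmyb60Cr2* replicate 2 (log2 fold change −1.27, limma adjusted p = 0.0578).

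Among the remaining named genes, a WD40 repeat protein (Solyc11g011980), of a class of scaffolds for protein complexes, fell from 3.75, 1.73, 1.48 and 3.33 TPM to 0.496, 0.318, 0.258 and 0.319 TPM (log2 fold change −2.50, standard error 0.31, limma adjusted p = 0.00489). A gene with homology to a retrovirus-related Pol polyprotein (Solyc12g077395) rose from 2.23, 0.390, 1.65 and 2.41 TPM to 7.75, 9.28, 6.49 and 9.23 TPM (log2 fold change 2.45, standard error 0.47, limma adjusted p = 0.0174), and its call was lost without *slmyb60Cr2* replicate 2 (log2 fold change 2.20, limma adjusted p = 0.0687). Of the other 2 such transposon genes, 1 was not called and Solyc11g061755 was called lower with the block (log2 fold change −1.05, limma adjusted p = 0.0446) and not without it (limma adjusted p = 0.0986).

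Of the 4 smallest adjusted p values, 3 belonged to genes without a known function and the other to *SlMYB60*. Solyc04g081700, which the study's list describes as an unknown protein, stood at 24.1, 24.3, 24.5 and 19.9 TPM in the wild type and 250.1, 238, 218 and 214 TPM in *slmyb60Cr2* (log2 fold change 3.31, standard error 0.06, limma adjusted p = 7.97e-08). It rose 9.91-fold without overlap, and replicate 4 of the wild type, at 19.9 TPM, stood somewhat below its group. Solyc08g044280, without a name here, rose from 67.0, 54.7, 65.2 and 68.1 TPM to 275, 322, 307 and 285 TPM (log2 fold change 2.22, standard error 0.11, limma adjusted p = 1.21e-04). Of the falls without a name, Solyc04g076220 went from 27.8, 21.9, 16.1 and 16.1 TPM to 12.3, 11, 7.09 and 8.56 TPM (log2 fold change −1.06, standard error 0.07, limma adjusted p = 6.20e-04, and −0.99 with a pseudocount of 1, where it was not called) and Solyc05g017790, at 20.1, 8.70, 2.79 and 17.8 TPM in the wild type (limma adjusted p = 7.91e-04), was listed at 0 in all 4 libraries of the line.

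The called genes were spread over all chromosomes, as read from the identifiers, with 1 more among the unplaced genes and shares of the genes tested from 1.07% (chromosome 11) to 2.58% (chromosome 12), against 1.73% overall. Chromosome 10, which carries *SlMYB60*, had 2.22%. Chromosome 1 held 2641 of the 20779 genes tested and 18 of the 74 falls, with runs of 2 and 3 neighbours among these falls. Calls also fell on neighbours. In 28 adjacent pairs of tested identifiers both genes were called, 27 of them in the same direction, and 49 of the 359 called genes lay in 22 such runs of 2 or 3, 19 of them higher and 3 lower. Neighbours of similar sequence could have shared reads, and whether these do was not tested.

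To see which changes were particular to *slmyb60Cr2*, it was compared with *slmyb60Cr1* in the same fit. Of the 20779 genes, 44 differed (0.212%), 27 higher (0.13%) and 17 lower (0.0818%) in *slmyb60Cr2*, and 20 of the 44 were also called against the wild type. Of these 20, 12 were higher than both other genotypes, 7 lower than both and 1 lay between them. Only 1 of the 20 was on the study's list. The count of 44 rested on the block and on single libraries, with 23 genes without the block, 8 without *slmyb60Cr2* replicate 2, 14 without *slmyb60Cr2* replicate 3 and 24 without *slmyb60Cr2* replicate 1. A gene that was not called here may still differ between the lines.

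Lower in *slmyb60Cr2* alone was a run of 3 neighbouring genes of chromosome 1 for which no name was at hand. The first had means of 43.8 ± 7.96 TPM for wild type leaves, 40.1 ± 12.3 for *slmyb60Cr1* and 13.7 ± 4.95 for *slmyb60Cr2*. For the middle one the levels were 4.58 ± 0.406, 4.03 ± 0.414 and 1.38 ± 0.249 TPM in the same order, and for the last 20.6 ± 7.26, 17.9 ± 6.32 and 7.15 ± 2.92 TPM. In each, all *slmyb60Cr2* libraries lay below all libraries of both other genotypes. The run lay −1.71, −1.67 and −1.52 from the wild type on the log2 scale (limma adjusted p = 0.00283, 0.00167 and 9.93e-04). The values against *slmyb60Cr1* were −1.56, −1.49 and −1.33 (limma adjusted p = 0.0168, 0.00911 and 0.00701).

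Higher in *slmyb60Cr2* alone was Solyc02g092450, without a name here. Wild type libraries held 1.97, 2.35, 2.29 and 3.67 TPM, those of *slmyb60Cr1* 2.31, 3.46, 2.92 and 4.86 TPM and those of *slmyb60Cr2* 6.91, 8.55, 7.73 and 14.2 TPM, replicate 4 being the highest of each genotype. Its log2 difference was 1.80 from the wild type (standard error 0.09, limma adjusted p = 1.21e-04) and 1.43 from *slmyb60Cr1* (limma adjusted p = 0.00323). The listed gene that differed between the lines was a bHLH factor, Solyc12g036470, with 38.3, 40.3, 66.3 and 52.5 TPM for the wild type, 12.4, 23.5, 35.2 and 24.7 TPM for *slmyb60Cr2* and 7.82, 8.11, 13.6 and 15.3 TPM in *slmyb60Cr1*. It lay below the wild type in *slmyb60Cr2* (log2 fold change −1.1, standard error 0.16, limma adjusted p = 0.00748, and 0.0628 without the block), but 1.06 above *slmyb60Cr1* on the log2 scale (limma adjusted p = 0.0311). Its call against the wild type was lost without wild type replicate 1 and without *slmyb60Cr2* replicate 1, with log2 fold changes from −1.23 to −0.94 over the 8 fits.

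**Figure D4:**
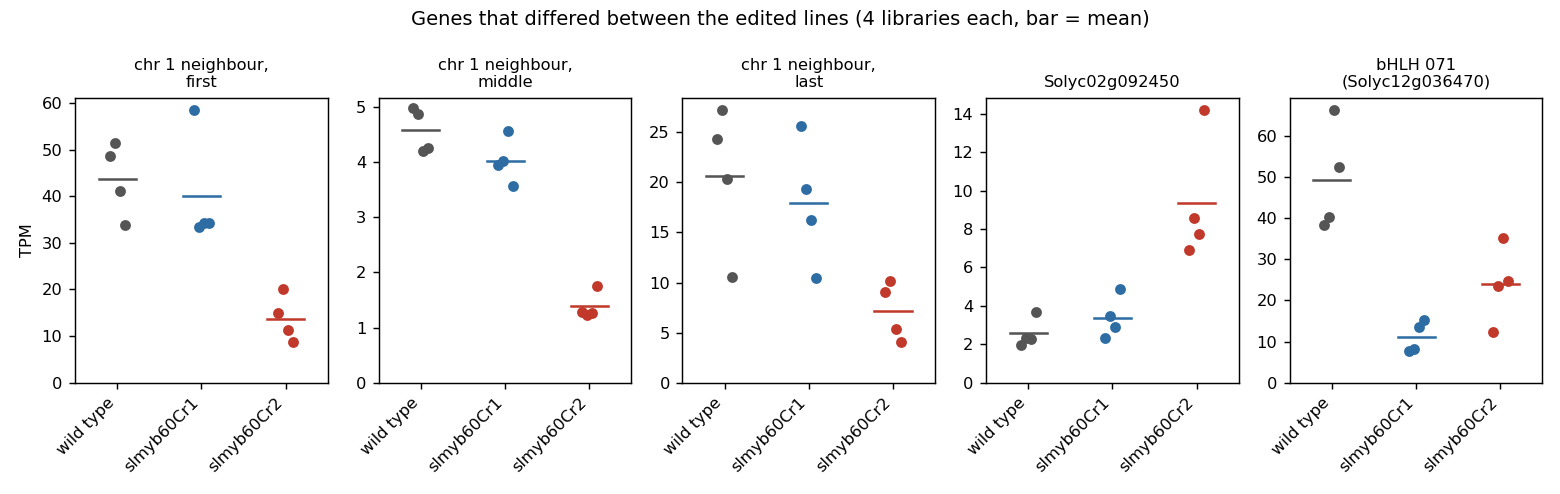
TPM (axes from 0) of 5 genes in the 4 libraries each of wild type (grey), *slmyb60Cr1* (blue) and *slmyb60Cr2* (red), with a bar at each mean. The 3 neighbours of chromosome 1 are lower in *slmyb60Cr2* than in both other genotypes, Solyc02g092450 is higher than in both, and the bHLH gene Solyc12g036470 lies between them.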

How the data were processed

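Leaf transcripts of *slmyb60Cr2*, *slmyb60Cr1* and the wild type were compared in 12 libraries, 4 of each. Per the labels the libraries were stranded. According to the study's methods, paired-end reads of poly(A) RNA were trimmed with fastp and quantified with Salmon against the ITAG 4.0 annotation, and DESeq2 is named in the submitters' processing notes. The values deposited by the authors are TPM, which sum to the same total in every library and keep no sequencing depth, so counting error is not given here. No column was without a sample. Genes that reached 0.5 TPM in 4 or more of the 8 libraries compared were tested on log2(TPM + 0.1) with limma 3.58.1 (R 4.3.3), using all 12 libraries, an intensity trend and the replicate number as a block. Other calculations used pandas 2.3.3, scipy 1.17.1 and matplotlib 3.10.9. In a self-test of the fit with planted changes among the 20779 genes, 176 of 200 genes changed by a log2 fold of 2 or 3 were recovered (88%), and 2 unchanged genes were called. Smaller changes were not planted, and only 69 of the 359 called genes passed a log2 fold change of 2 in size. The planted noise was drawn separately for each gene, without differences shared by many genes of a library. The self-test therefore gives no error rate for the 359 calls.

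Groups came from the labels. The labels do not say what a replicate number stands for, and p-values measure only the spread between these libraries. Deviations from the group means correlated between same-numbered wild type and *slmyb60Cr2* libraries at 0.3696, 0.037, 0.1637 and 0.2681 for numbers 1 to 4, so the numbers are not shown to pair the libraries. The block was kept and values without it are given where they change the call of a named gene.

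Genes are named by a rule: *SlMYB60*, the 8 largest rises and the 8 largest falls among called genes with a description and no overlap, the 5 smallest adjusted p values, up to 3 called members of each function list and up to 2 rising and 2 falling genes without a description. It gave 48 genes, and 34 more were chosen after their values were seen. These 82 genes were followed through the alternatives. Solyc02g082910 and Solyc11g061755 were also chosen after their values were seen and are named only for the loss of their calls without the block. The members and the lists were chosen with earlier results of these data known. Alternatives were no block, only the 8 libraries, pseudocounts of 1 and 0.5, other TPM limits, another scaling, no trend, library weights, another call rule and each library left out.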

Additional observations from a re-analysis of the deposited data

Results flagged for a closer look

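In 12 of 164 groups of 4 libraries of the named genes, 1 library lay apart from the other 3 by Dixon's test, 8 in the wild type and 4 in *slmyb60Cr2*. Chance gives about 1 in 20 such groups. In the wild type these were replicate 3 for the bHLH gene Solyc12g008930 (4.58 TPM), Solyc02g087210 (6.75 TPM) and Solyc10g050970 (2.22 TPM), replicate 4 for Solyc04g081700 (19.9 TPM), Solyc09g092520 (30.0 TPM) and Solyc07g044960 (1.15 TPM), and replicate 1 for Solyc04g007000 (36.5 TPM) and Solyc09g008760 (48.4 TPM). In *slmyb60Cr2* they were replicate 2 for Solyc03g005900 (1.13 TPM) and replicate 4 for Solyc11g032050 (0.352 TPM), Solyc03g093890 (47.8 TPM) and the middle one of the 3 chromosome 1 neighbours (1.75 TPM).

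The edited lines differed from each other in 5 named genes by limma's test of that difference. Of these, the 3 chromosome 1 neighbours were named after their values were seen, so the count of 5 follows in part from that choice. The log2 difference, *slmyb60Cr2* minus *slmyb60Cr1*, was 1.43 for Solyc02g092450, 1.06 for Solyc12g036470, and −1.56, −1.49 and −1.33 for the 3 chromosome 1 neighbours.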

How the results depend on the processing

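The count of 359 genes called between *slmyb60Cr2* and the wild type was 14 when the change had to exceed a log2 fold of 1 by limma's own test and 2307 when only an adjusted p below 0.05 was asked for, and with 1 library left out it ranged from 176 to 347. Under the other alternatives it lay between 242 (pseudocount 1) and 409 (library quality weights). Without the replicate block 289 genes were called, 275 of them among the 359. The block was planned by replicate number and was not chosen from correlations. Same-numbered wild type and *slmyb60Cr2* libraries correlated at 0.3696, 0.037, 0.1637 and 0.2681. Differently numbered ones ranged from −0.4152 (wild type 4 with *slmyb60Cr2* 1) to 0.3778 (wild type 4 with *slmyb60Cr2* 3), so the numbers are not shown to pair the libraries. The 44 genes between *slmyb60Cr2* and *slmyb60Cr1* became 23 without the block and 110 with library quality weights, and ranged from 8 to 49 with 1 library left out. With only the 8 libraries this comparison has no value. Of the 82 named genes, 76 were called, a count set largely by the naming rule, which took called genes. Over the 17 alternative fits with the call rule unchanged, 47 stayed on the same side of the thresholds in each fit that gave a value, 35 changed side in 1 or more, and 0 reversed. With the test against a log2 fold of 1, 10 named genes were called. The causes of these shifts were not tested.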

Other observations

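In a principal component analysis of the 8 libraries, the first component held 30.3% of the variance and put replicates 1 and 2 below replicates 3 and 4 within each genotype. The next component held 26.5%.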
